A study of Homo sapiens with 8 samples.

Results

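A run of kept CTCF peaks is a stretch of 10 or more neighbouring control peaks on 1 chromosome, each of which was overlapped by at least 1 bp by a CTCF peak of CBL0137-treated cells. Of the 46054 CTCF peaks of control HT1080 cells on chromosomes 1 to 22, 26405 were kept by this rule (57.3%), and 2596 of them lay in 206 such runs. The members were therefore 5.64% of the control peaks (95% Wilson interval 5.43 to 5.85%) and 9.83% of the kept peaks. The members were chosen by that overlap between the control and the treated list, so run lengths and peak strengths are given as a description.

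CTCF was immunoprecipitated from HT1080 cells, a human fibrosarcoma line described as ras +, with a polyclonal anti-CTCF antibody. The 8 libraries were 2 ChIP and 2 input libraries of untreated cells, and 2 ChIP and 2 input libraries of cells exposed to 3 µM CBL0137 for 6 h. The 2 replicates per group are biological replicates of this 1 line. Each deposited peak list pools the replicates of a condition, so a peak has 1 value per condition, the authors' pooled fold enrichment over input, with no replicate spread. All intervals below are 95% intervals that cover counting error only, and neighbouring peaks are not independent of each other. The peak lists hold no read depths.

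CTCF is a zinc finger protein that binds DNA through an oriented motif and holds cohesin at the anchors of chromatin loops. Pairs of sites that face each other are the usual anchors of a loop, and sites also serve as insulators between genes and enhancers. CBL0137 is a curaxin, a small molecule that binds DNA without cutting it and traps the histone chaperone FACT on chromatin.

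The most fixed letters of the CTCF motif, CCA, AG and GGC in this order with 2 free bases between each, were searched on both strands in the 400 bp around each peak centre, and a hit is called a core match. The strongest member with a core match in 5 of the longest runs is printed first, because these sites stand for the strongest motif-bearing binding inside the runs. Each line gives 30 bases of the hg19 reference from 5′ to 3′ on the strand of the match, with the 12 core letters in capitals.
Run 1, in an intron, nearest start CCDC124, chr19:18049225-18049254, plus strand: ctgcttggcCCAGTAGGTGGCgccagtgac
Run 2, nearest start SEC14L1, outside protein-coding genes, chr17:75052505-75052534, minus strand: gcggcttcgCCACGAGGGGGCgctcccggc
Run 3, nearest start TCF3, outside protein-coding genes, chr19:1672126-1672155, minus strand: ccccattggCCACCAGGTGGCagcacgcgc
Run 8, nearest start CYP4F8, outside protein-coding genes, chr19:15695632-15695661, plus strand: cacagacagCCAGCAGGGGGCgtcggagaa
Run 10, nearest start TFCP2L1, outside protein-coding genes, chr2:121834703-121834732, plus strand: ctgcacctgCCAGCAGAGGGCgccggagca

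A core match was also present at the end of 2 of the 10 longest runs, in the 400 bp around the lost peak that bounded the run. These lines are printed for contrast with the members, and the first match lies in that window but outside the lost peak itself, chr7:100933951-100934050.
Lost peak after run 6, nearest start IFT22, chr7:100933863-100933892, minus strand: cagaagctgCCAGCAGGGGGCagcagaggc
Lost peak after run 9, in an exon, nearest start SKIC8, chr15:78577278-78577307, plus strand: cagcagcccCCAGGAGAGGGCcccagacac
The CYP4F8 member had a fold enrichment of 81.0 in the control list and 68.1 in the treated list. The lost peak nearest to IFT22 had 21.9 in control cells and no peak in treated cells. The lost SKIC8 peak had 15.4. The printed members were picked for their strength, and weaker members with a core match occurred, such as 1 in run 10 with 12.4 in control cells.

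Most runs held 10 to 12 peaks. There were 70 runs of exactly 10 peaks and 130 of 10 to 12 peaks, while 37 runs held at least 15 peaks, 13 held at least 20, and the longest held 32. Just outside the threshold lay 91 runs of 9 kept peaks with a median fold enrichment of 35.4 and a median GC content of 54.0%. Just inside it, the peaks of the runs of 10 had 36.1 and 51.2%. Core matches were found in 29.7% of the peaks of runs of 9 and in 32.3% of those of runs of 10. By the same count for lost peaks, 27 runs of 10 or more, with 302 peaks, were made only of lost peaks, and the longest of them held 16.

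**Figure D1:**
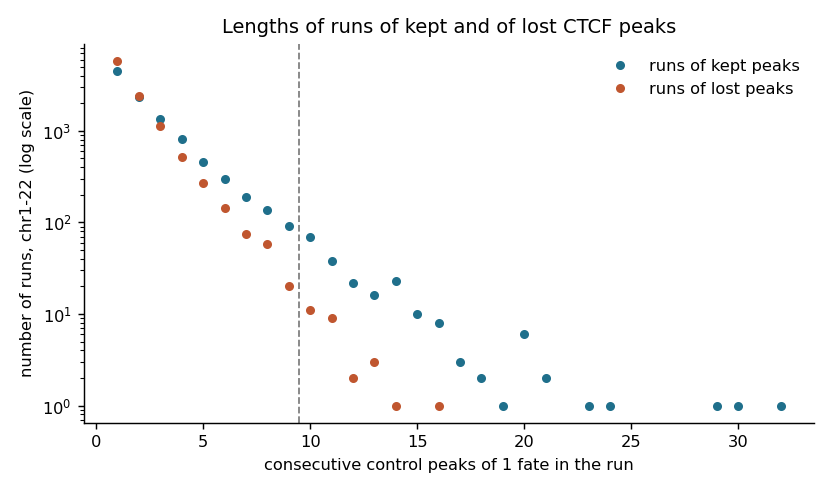
Number of runs (y axis, log scale) against the number of consecutive control peaks of 1 fate (x axis) on chromosomes 1 to 22, with kept peaks in blue and lost peaks in orange; the dashed line marks the minimum of 10. Kept runs reach 32 peaks and lost runs 16.

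A kept peak was followed by a kept peak more often than a lost peak was. The peak that followed a kept peak was itself kept in 60.7% of 26390 cases, against 52.8% of 19642 cases after a lost peak, a difference of 7.89 percentage points (6.98 to 8.80). The difference was 7.41 points (3.70 to 11.1) for neighbours under 2 kb apart and 4.19 points (0.142 to 8.22) for neighbours 200 kb or more apart. Both shares were lower for distant neighbours: after a kept peak, 65.3% of the neighbours under 2 kb away were kept and 48.8% of those 200 kb or more away. Within deciles of GC content over the surrounding 100 kb the difference was 2.88 points, and within deciles of control fold enrichment it was 4.92 points. The surrounding GC content and peak strength thus moved with the shared fate. Their part in it was not tested. The difference of 7.89 points pools chromosomes that kept from 47.1% (chromosome 13) to 78.9% (chromosome 19) of their peaks. No value within chromosomes is given. Without chromosome 19 the difference was 7.31 points (6.38 to 8.24).

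The runs were unevenly spread over the chromosomes. All 22 autosomes held at least 1 run, but chromosome 19 held 33 runs with 478 members, 30.1% of its control peaks (27.9 to 32.4%). Chromosome 16 followed with 16% (14.2 to 18%) and chromosome 17 with 10.9% (9.59 to 12.3%), and these intervals do not overlap. Chromosome 4 had a single run of 10 peaks, 0.471% of its control peaks (0.256 to 0.865%), and chromosome 18 also a single run of 10, 1.01% (0.549 to 1.85%). Chromosome 19 carried 6 of the 13 runs of at least 20 peaks. It was the chromosome with the most protein-coding genes per Mb, 25, against 3.98 on chromosome 4, and it kept 78.9% of its peaks against 48.0%. A run needs consecutive kept peaks, so the share of members is not independent of the kept share. The order of the chromosomes by the observed values was not the same, however. Chromosome 22 kept 66.3% of its peaks and had 4.71% in runs, while chromosome 7 kept 56.5% and had 7.15% in runs. The intervals of these run shares overlap, and chromosome 22 held only 3 runs, so the order of this pair is not settled.

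**Figure D2:**
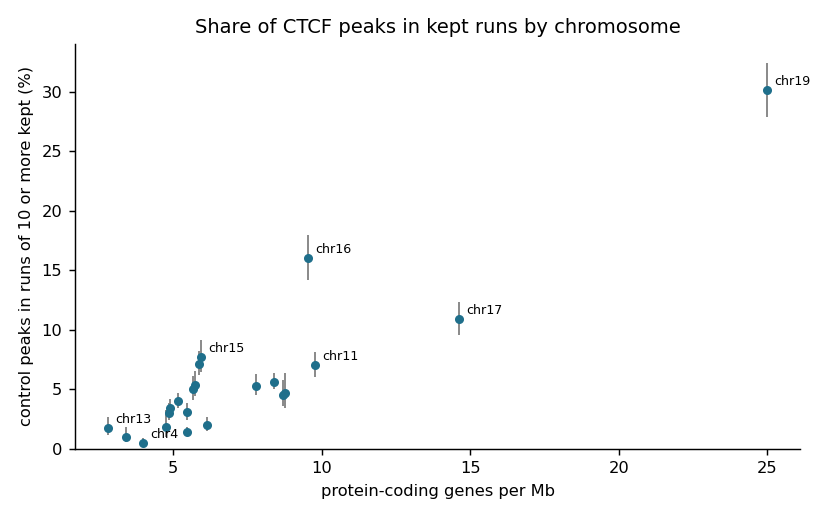
Share of control CTCF peaks that lie in runs of 10 or more kept peaks (y axis, %, bars are 95% Wilson intervals) against protein-coding genes per Mb (x axis) for each of the 22 autosomes. Chromosome 19 stands apart at 25 genes per Mb and 30.1%, and chromosome 4 lies at 3.98 genes per Mb and 0.471%.

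The runs lay in gene-rich DNA. Together they spanned 87.8 Mb, 3.05% of the autosomes, and 1501 of 19229 protein-coding genes (7.81%) started inside them, which is 17.1 genes per Mb against 6.67 over all autosomes. The control peaks were also denser there, with 29.6 per Mb in the runs against 16 overall. A run spanned 331 kb in the median, from 82.5 kb to 8436 kb, and held a median of 6.00 protein-coding gene starts. The largest gap between neighbouring members exceeded 200 kb in 26 runs and 1 Mb in 2 runs. The 8436-kb run, with 14 peaks on chromosome 7 at chr7:55661401-64097050, crosses a gap of 4990 kb, and 9 zinc finger genes from ZNF713 to ZNF680 start within it.

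The 10 longest runs are given by the protein-coding genes with starts nearest to their first and last peaks, which can lie outside the run. The longest run held 32 peaks over 720 kb at chr19:17559501-18279350, from TMEM221 to IFI30, and 21 protein-coding genes start in it. Among them are SLC27A1, which encodes a fatty acid transporter, and SLC5A5, the sodium-iodide symporter of the thyroid. Control fold enrichment in the run ranged from 15.2 to 79.5 with a median of 37.3, and treated fold enrichment from 8.14 to 76.7 with a median of 36.5. The strongest member, in an exon and nearest to the start of PIK3R2, which encodes a regulatory subunit of a phosphoinositide kinase, had 79.5 in control and 76.7 in treated cells and no core match. The weakest, 2525 bp from the MAP1S start, had 15.2 in control and 31.7 in treated cells. The last peak, in an intron and nearest to the start of IFI30, had 64.9 in control and 29.5 in treated cells. Being kept therefore did not mean an equal value. Of the 32 peaks, 8 lay at a site that the authors listed as higher in control cells. There were 3 at a site listed as higher in treated cells. Over all control peaks these shares were 51.2% and 2.44%. The peak that opens the run, 74 bp from the TMEM221 start, lay at a site higher in treated cells, with 25.1 in control and 44 in treated cells. The run was bounded by lost peaks with a control fold enrichment of 31.3 on the left and 18.4 on the right.

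**Figure D3:**
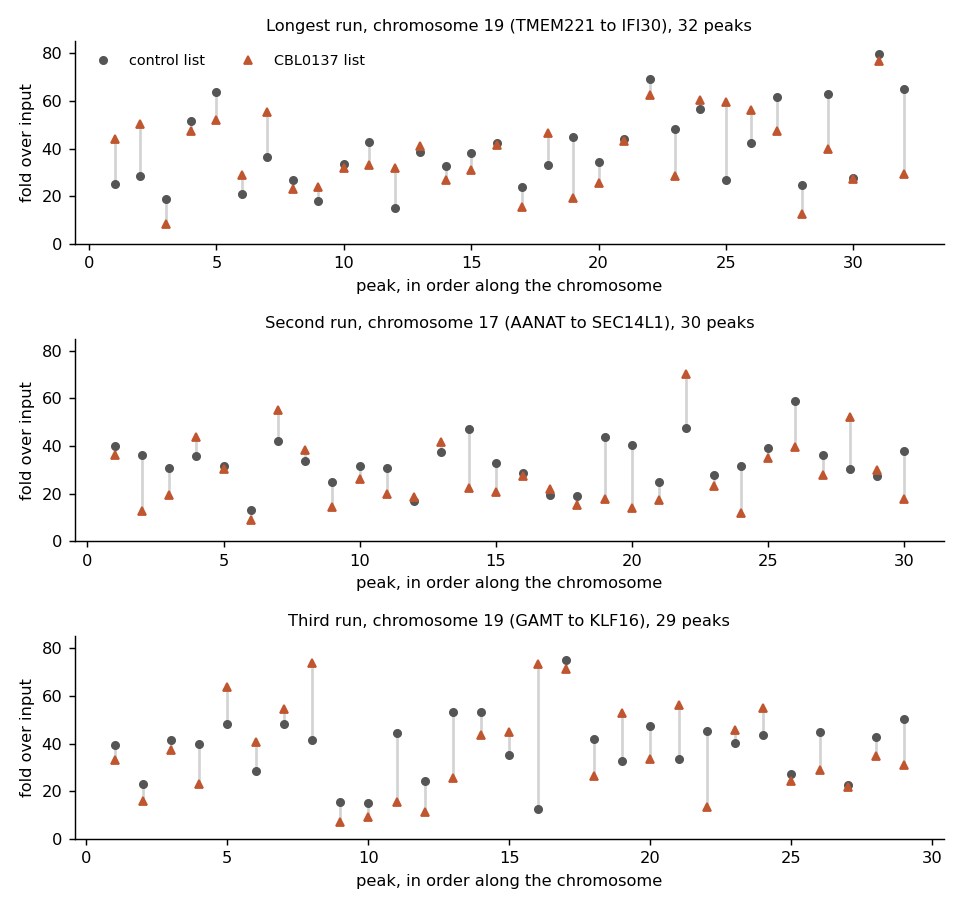
Fold enrichment over input (y axis) of each member, in order along the chromosome (x axis), in the 3 longest runs; circles are the control list, triangles the overlapping peak of the CBL0137 list, and a grey line joins both. Each point is a single pooled value with no replicate spread. In the third run 1 peak goes from 12.6 to 73.5, while in the longest run the strongest peak has 79.5 and 76.7.

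The run of 30 peaks at chr17:74449251-75092900 reached from AANAT, which encodes an enzyme of melatonin synthesis, to SEC14L1, a gene of the SEC14-like lipid-binding family. Its median was 32.2 in control cells and 22.7 in treated cells. Of its 30 peaks, 9 lay at a site listed as higher in control cells and none at one listed as higher in treated cells. The shares over all control peaks were 51.2% and 2.44%. The strongest member, nearest to SEC14L1, had 58.9 in control and 39.7 in treated cells. It had 12 core matches, as many as the longest run, with 4 on the plus strand here and 5 in the longest run.

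The third run, 29 peaks over 464 kb at chr19:1401501-1865100, ran from GAMT, which encodes an enzyme of creatine synthesis, to KLF16, a zinc finger transcription factor. It had the most promoter peaks of all runs, with 10 of its members within 1 kb of a protein-coding start, among them the peak 81 bp from the start of RPS15, a ribosomal protein gene, with 41.3 in control and 37.1 in treated cells. Its strongest member, in an intron and nearest to the homeobox gene ONECUT3, had 75 and 71.3. Another peak nearest to ONECUT3, chr19:1768351-1768500, had only 12.6 in the control list but 73.5 in the treated list. The peak 504 bp from the UQCR11 start had 44.5 and 15.5. High and low ratios of treated to control values thus stood side by side in this run. In it, 5 peaks lay at a site higher in control cells and 4 at a site higher in treated cells. Over all control peaks these shares were 51.2% and 2.44%. A further 12 treated peaks in the run had no control peak under them.

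Of the other 7 longest runs, 2 lay near the end of the long arm of chromosome 16. The run of 24 peaks at chr16:88038851-88882850 reached from BANP to APRT, a purine salvage enzyme gene, and included ZNF469, with its strongest member nearest to ZC3H18 at 79.6 in control and 60.9 in treated cells. The run of 23 at chr16:84217651-85061950 reached from TAF1C, which encodes a subunit of the RNA polymerase I factor SL1, to KIAA0513, and its strongest member, nearest to MEAK7, had 70.4 and 52.4. On chromosome 7 a run of 21 peaks at chr7:100322851-100926600 reached from EPO, the erythropoietin gene, to FIS1, a mitochondrial fission gene, and contained the cation-chloride cotransporter family gene SLC12A9. Its strongest member, nearest to TRIM56, had 77.5 and 65.1.

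Chromosome 19 held 2 more of the 10 longest runs. The run of 21 peaks at chr19:47432401-47918000, from ARHGAP35 to the homeobox gene MEIS3, had a median of 39.4 in control and 41.4 in treated cells. It was the only one of these 10 runs in which every member was also kept when the overlap had to exceed 50% of the longer peak. The run of 20 at chr19:15202701-15871100 was bounded by olfactory receptor genes, OR1I1 and OR10H3, and its strongest member, nearest to the cytochrome P450 gene CYP4F8, had 81.0 and 68.1. A run of 20 on chromosome 15 had its strongest member in an intron, nearest to LINGO1, with 73.2 and 66.5.

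The run of 20 peaks at chr2:121665451-122288800 differed from the others named in its gene content. Its first peak was nearest to the start of GLI2, a transcription factor of Hedgehog signalling, and its last to that of CLASP1, a microtubule-binding protein gene. Both of these peaks lay inside a gene, and 8 members of the run were in introns and 1 in an exon. TFCP2L1 was the only protein-coding gene to start within its 623 kb. No member was within 1 kb of a start. Control values ranged from 12.4 to 73.3 and treated values from 10.8 to 79.6, the medians being 35.7 and 25.5. The peak 214052 bp from the TFCP2L1 start had 35.1 in control and 79.6 in treated cells, whereas the peak 12448 bp from it had 47.3 and 13.3.

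Members had more GC-rich DNA than other kept peaks, while core matches were about as frequent in both. Of the members, 67.4% had a GC content of at least 50% over 500 bp, against 41.5% of the 23809 kept peaks outside the runs, a difference of 25.9 points (24 to 27.8), and against 21.4% of the 19649 lost peaks. Members were the higher of the pair on 17 of the 19 chromosomes with at least 20 members and 20 other kept peaks, and the difference was 24 points (21.8 to 26.1) without chromosome 19. The median GC content was 55.0% for members, 47.4% for other kept peaks and 43.0% for lost peaks. A core match was found in 32.7% of members and 32.2% of other kept peaks, a difference of 0.532 points (-1.34 to 2.45), and in 11% of lost peaks. In equally long windows 10 kb downstream the letters occurred in 2.50% of cases for members and 1.33% for other kept peaks. The core is a strict pattern. A degenerate consensus with at most 1 mismatch was found in 60.3% of members, 62.2% of other kept peaks and 31.2% of lost peaks. For this looser pattern no downstream windows were counted.

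The share of members showed a gradient with surrounding GC content. Of the control peaks in the lowest decile of GC content over the surrounding 100 kb, 0.109% were members (0.0464 to 0.254%), and of those in the highest decile, 21.9% (20.8 to 23.2%). The share of all kept peaks went from 38.5% to 77.8% over the same deciles, and the median control fold enrichment from 24.6 to 34.5. At least 50% GC in the surrounding 100 kb was found for 49.7% of members and 16.7% of other kept peaks. Members were also closer to chromosome ends, with 23.9% within 5 Mb of one against 9.95%, a difference of 14 points (12.3 to 15.7) that had this direction on 12 of 19 chromosomes and the opposite one on 7.

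Members lay closer to genes and to each other. A protein-coding start was within 1 kb of 11.3% of members and 8.25% of other kept peaks, a difference of 3.08 points (1.86 to 4.40), and the median distance to the nearest such start was 15528 bp against 33740 bp. Another control peak lay within 10 kb of 54.8% of members and 42.7% of other kept peaks, a difference of 12.1 points (10.1 to 14.1) that had the same direction on 18 of 19 chromosomes. Within deciles of the surrounding GC content the promoter difference was 0.492 points and the neighbour difference 2.41 points. Protein-coding exons held 14.3% of members and 9.78% of other kept peaks, and introns 41.4% and 43.4%.

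**Figure D4:**
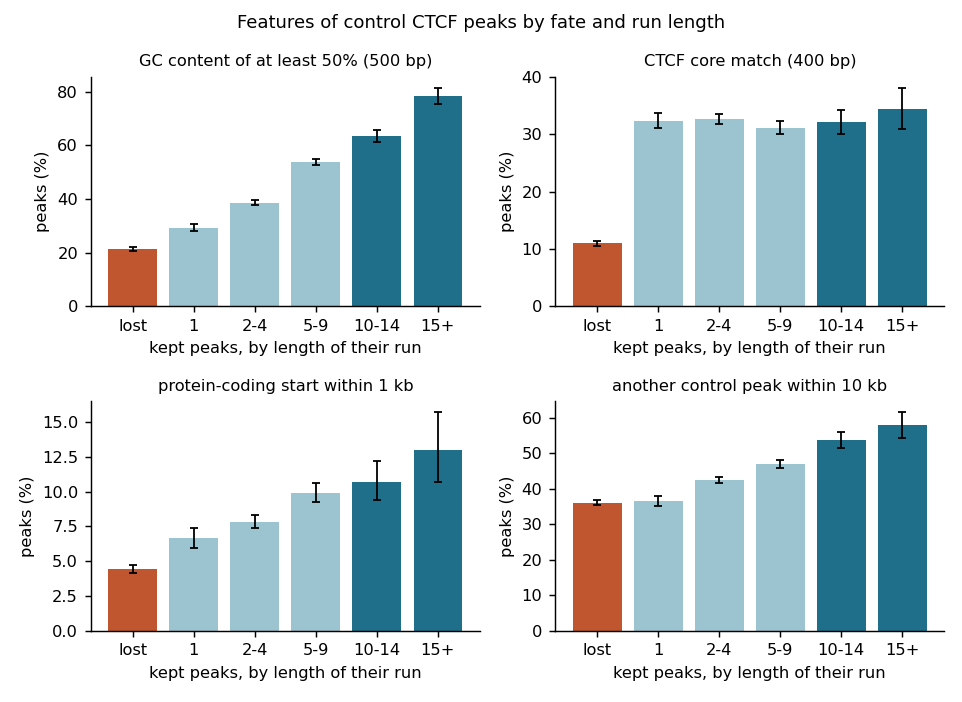
Share of control peaks (y axis, %) with each of 4 features, for lost peaks (orange) and for kept peaks by the length of their run (x axis; dark bars are the members), with 95% Wilson intervals. GC-rich peaks rise from 29.3% in runs of 1 to 78.5% in runs of 15 or more, while core matches stay between 31.2% and 34.5% among kept peaks.

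The same gradient continued within the runs. Peaks with at least 50% GC made up 29.3% of kept peaks with no kept neighbour, 63.4% in runs of 10 to 14 and 78.5% in runs of 15 or more. Core matches did not follow it: their share was 32.4% for kept peaks without a kept neighbour, 32.1% in runs of 10 to 14 and 34.5% in runs of 15 or more, with overlapping intervals (31.1 to 33.8%, 30.1 to 34.2% and 31.0 to 38.1%).

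Peak strength differed less than composition. The median control fold enrichment was 37.3 for members, 34.4 for other kept peaks and 20.3 for lost peaks, and 75.7% of members exceeded the median of all control peaks, 28.5, against 69.5% of other kept peaks. This difference of 6.20 points (4.41 to 7.91) was 2.17 points within deciles of the surrounding GC content. In the treated list the medians were 33.4 and 28.5. Weak peaks occurred in the runs as well: 7.78% of members were in the lowest quartile of control values, against 8.60% of other kept peaks, and all members exceeded the overall median in only 13 of the 206 runs. The treated peak was narrower than the control peak for 54.0% of members and 63.6% of other kept peaks, and wider for 20.4% and 14.4%.

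The authors' lists of sites that differed between conditions rest on these same libraries, so they give no independent view of the members. A site higher in control cells overlapped 22% of members, against 32.1% of other kept peaks and a background of 51.2% of all control peaks. The difference between members and other kept peaks was -10.1 points (-11.7 to -8.32), and -3.56 points within deciles of the surrounding GC content. A site higher in treated cells overlapped 6.90% of members, 3.97% of other kept peaks and 2.44% of all control peaks. In 15 runs no member overlapped a site higher in control cells, and 112 runs had at least 1 member at a site higher in treated cells. Treated peaks without any control peak under them made up 8.67% of the 2850 treated peaks within the runs and 8.08% of those on all autosomes.

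The 2 runs at the immunoglobulin heavy chain locus, chosen for description after their values were seen, had all their core matches on 1 strand. The locus encodes antibody heavy chains, whose variable segments lie side by side and are joined in B cells, a cell type unrelated to this fibrosarcoma line. The run of 16 peaks at chr14:106495651-106987150 spans 24 segments from IGHV3-7 to IGHV1-46, and the run of 17 at chr14:107012651-107287750 spans 17 from IGHV3-49 to IGHV7-81. They were parted by 1 lost peak, chr14:107007351-107007550, with a control fold enrichment of 18.5. All 19 core matches in both runs were on the minus strand, the strand on which all 47 IGHV segments of the annotation lie. Of the 12 sites in the second run, 6 had the same 12 core letters, and these are printed to show how alike they are.
chr14:107012855-107012884, fold enrichment 33.5: cgcacagagCCACCAGGGGGCgctagggac
chr14:107074679-107074708, fold enrichment 31.5: ctctcagaaCCACCAGGGGGCgctcaggac
chr14:107150884-107150913, fold enrichment 21.3: tgctcggatCCACCAGGGGGCtcttagggc
chr14:107239002-107239031, fold enrichment 29.5: agctcagaaCCACCAGGGGGCgctcaggac
chr14:107239655-107239684, fold enrichment 34.7: tgctcagaaCCACCAGGGGGCactcaggaa
chr14:107287533-107287562, fold enrichment 38.6: tggtccgagCCACCAGGGGGCactcaggac
The locus is made of near-identical repeats, and reads that aligned to several places were removed by the authors, so values of single peaks there are uncertain.

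The heavy chain runs were among the 52 runs whose median fold enrichment was higher in the treated than in the control list. The median was 35.3 in control and 53.3 in treated cells for the run of 16, and 33.5 and 45.8 for the run of 17. Sites higher in treated cells overlapped 4 and 8 of their members, and sites higher in control cells none. Over all control peaks these shares were 2.44% and 51.2%, and over all members 6.90% and 22%. Both runs were picked after these values were seen, and the uncertainty of single peaks in these repeats applies to the counts as well. The strongest member of all 206 runs lay here, chr14:107020051-107020350, with 98.1 in control cells and 48.9 in treated cells.

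Such strand bias was rare in the other runs. Among the 78 runs with at least 5 core matches, all matches were on 1 strand in 7 runs, and 5 of these lay in immunoglobulin or T cell receptor loci. Besides the heavy chain runs, these were a run of 18 at the lambda light chain locus on chromosome 22, with 8 of 8 matches on the plus strand, a run of 12 at the T cell receptor alpha locus from TRAV2 to TRAV13-2, with 5 of 5 on the plus strand, and a run of 11 at the T cell receptor beta locus from TRBV5-1 to TRBV6-5, with 5 of 5 on the minus strand. A further run at the lambda locus, with 10 peaks from IGLV3-1 to IGLC7, had 4 core matches, 1 on the plus strand and 3 on the minus strand. Over all members the strands were even, with 425 of 850 matches on the plus strand. Of 284 pairs of neighbouring members that both had a core match, 52.1% (46.3 to 57.9%) pointed the same way, 22.2% faced each other and 25.7% faced away, against 49.8%, 21.1% and 29% of 1433 pairs of other kept peaks.

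**Figure D5:**
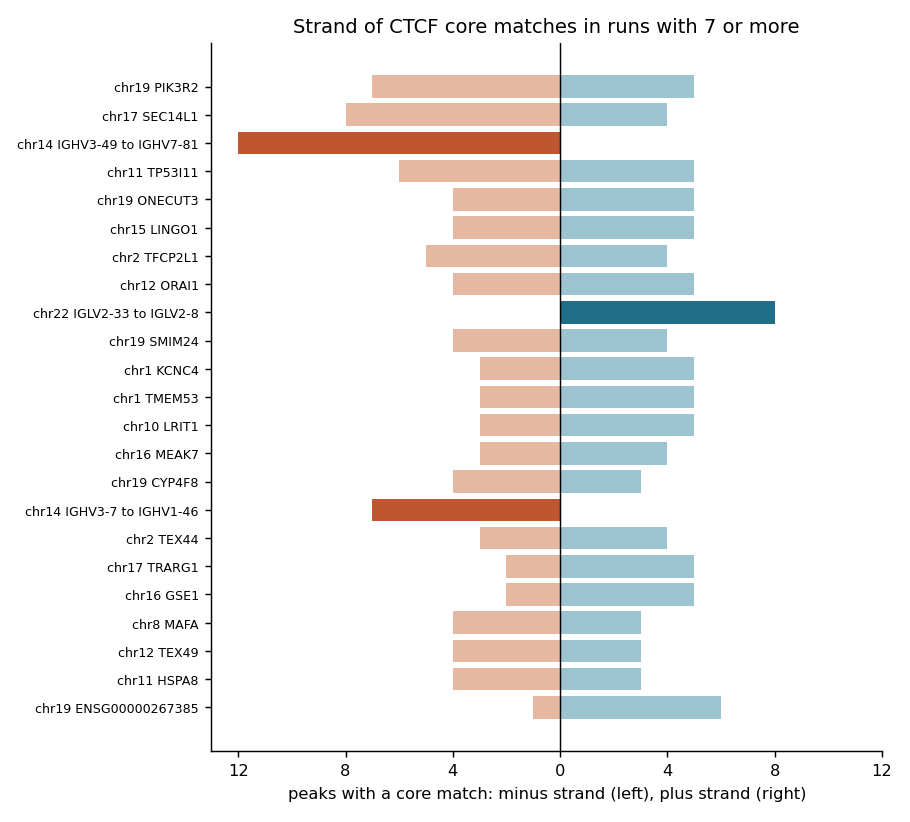
Number of members with a core match on the minus strand (left, orange) and plus strand (right, blue) in the 23 runs with at least 7 core matches, each named by its chromosome and the gene nearest to its strongest member, or, for immunoglobulin runs, by its first and last segment; dark bars are immunoglobulin runs. The 3 immunoglobulin runs have all matches on 1 strand, 12, 7 and 8 of them, and the other 20 runs have matches on both.

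The share of genes that started in a run varied between families, against 7.81% of all protein-coding genes, and several families were near that share. Immunoglobulin V segments were the most frequent, with 58 of 141 inside runs (41.1%, 33.4 to 49.4%), all in 4 runs. The annotation does not count these segments as protein-coding genes, so the 7.81% leaves them out. Clustered protocadherins followed with 10 of 53 (18.9%, 10.6 to 31.4%), all in 1 run. Of the zinc finger genes, many of which encode repressors of transposable elements, 64 of 553 started in a run (11.6%, 9.17 to 14.5%), spread over 27 runs. Of the solute carrier genes it was 34 of 359 (9.47%), of the olfactory receptors 29 of 414 (7.0%) in 5 runs, of the ribosomal protein genes 5 of 80 (6.25%), and of the collagens 3 of 42, namely COL20A1, COL23A1 and COL26A1. None of the 39 HOX genes, 65 replication-dependent histone genes, 55 keratin genes or 94 keratin-associated protein genes started in a run. Genes of 1 family lie side by side, so a family in 1 run is a single locus.

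A pair of these families shows how unlike the runs can be. The 13 peaks at chr5:140535251-140705900 covered these 10 protocadherin genes, all of the beta cluster, PCDHB7 to PCDHB16, which encode neuronal cell adhesion proteins. They had a median GC content of 41.0% and a median control fold enrichment of 24, both below the medians of all members, 55.0% and 37.3, and 9 of the 13 lay within 1 kb of a protein-coding start. The gene for CTCF itself started in a run of 17 peaks at chr16:67433351-67697750, with a median GC content of 60.4% and a median fold enrichment of 40.8 in control and 32.3 in treated cells. No other gene of the 8 autosomal ones for CTCF and cohesin started in a run, nor did either gene of the FACT complex. Genes on chromosome X were not counted.

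The lost peaks that bounded the runs were richer in GC than other lost peaks. Of these 399 peaks, 49.6% had at least 50% GC, against 20.8% of the other 19250 lost peaks, a difference of 28.8 points (23.9 to 33.7). Their median control fold enrichment was 21.5 against 20.3, and a core match was found in 10.5% against 11%, a difference of -0.435 points (-3.12 to 2.99). They lay a median of 21.3 kb from the end of the run. In 9 places a single lost peak parted neighbouring runs. The pair with the most peaks, 20 and 18 on chromosome 19, extended over 835 kb around 1 lost peak nearest to NFIC, chr19:3302801-3303050, which had a control fold enrichment of 35.5, no core match and an overlap with a site higher in control cells.

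Membership depended on the overlap that counts as kept. When the overlap had to exceed 50% of the longer peak, 2329 members (89.7%) were still kept, against 86.0% of other kept peaks, but a single peak no longer kept breaks a run, and 83 runs of 10 or more remained. The longest run then kept 28 of its 32 peaks, with 16 in its longest unbroken stretch, and the run of 30 on chromosome 17 kept 24 with 9 in a row.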

How the data were processed

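With Bowtie2 2.2.3 the authors aligned the reads, which the labels call paired-end and the study's methods single-end, to the hg19 genome. They discarded reads with several alignments and called peaks with PePr on both replicates of a condition against input. SAMtools 1.5 and deepTools 2.0 are also named in the submitters' notes. The deposited lists give each peak's fold over input (a ratio), p-value and FDR (an adjusted p-value), and the p-value was not used. The fold is the authors' pooled value. The lists of sites that differed between conditions also hold the authors' fold changes and p-values, and only positions were used from them.

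Peaks on chromosomes 1 to 22 were sorted, and runs, GC content, core matches and distances to GENCODE (v44 lifted to hg19) start sites were computed with Python 3.11.15, pandas 2.3.3 and pysam 0.24.0. Scripts were tested on simulated peaks. The 10 runs with the most peaks, their bounding genes, the gene nearest to the strongest member and members of fixed gene families are named, and other genes were chosen after their values were seen. Members and lists were chosen with earlier results of these data known. Shares carry Wilson intervals and differences Newcombe intervals. Peaks are not replicates, so no p-value was computed. Other overlaps, thresholds, windows and run lengths were tried.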

Additional observations from a re-analysis of the deposited data

How the results depend on the processing

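No paired analysis was possible because each list pools the replicates of its condition; leaving out a replicate could not be done for the same reason. Of 96 alternative values, 60 stayed within the range of counting error (for counts, within 1.5 times), 36 moved, and no difference whose interval excluded 0 changed sign; the cause was not tested unless the alternative itself changes the peaks counted. The 206 runs and 2596 members became 83 and 972 with overlap over 50% of the longer peak, 104 and 1244 with over 50% of the control peak, 527 and 8081 when the strongest control peaks were taken, as many as the treated list holds, 433 and 4503 with a minimum of 8 peaks, 98 and 1478 with 12, and 37 and 684 with 15. The next-peak difference was 2.88 points within deciles of surrounding GC content and 4.92 within deciles of fold enrichment. The GC difference between members and other kept peaks, 25.9 points, was 30.5 with an FDR of at most 1e-05, 35.4 with runs of at least 15, 23.6 within deciles of fold enrichment, 22.5 with a 200-bp and 28.2 with a 1000-bp window. The core difference, 0.532, was -1.66 with that FDR (-3.95 to 0.689) and -1.84 with a degenerate consensus (-3.83 to 0.123), so its sign is not settled. The promoter difference, 3.08, was 1.86 with the longer-peak overlap, 4.58 with runs of 15, 0.492 within GC deciles, 8.38 for starts within 5 kb and 5.23 for all genes. The neighbour difference, 12.1, was 9.66, 14.4 and 2.41 under the first 3 of these and 8.44 within 5 kb. The strength difference, 6.20, was 2.17 within GC deciles. The difference at sites higher in control cells, -10.1, was -7.02 with the longer-peak overlap, -6.52 with the FDR limit, -13.6 with runs of 15, -3.56 within GC deciles and -8.27 with overlap over 50% of the peak. The alternatives within GC deciles, within fold deciles of the next peak and without chromosome 19 were chosen after seeing the data.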

Other observations

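Of the 206 runs, 7 contained no protein-coding gene start. Besides 4 at antigen receptor loci, 1 was a run of 10 peaks at chr12:117908651-118313050, all in introns, with medians of 41.8 in control and 30.5 in treated cells. The starts nearest to its first and last peaks were those of NOS1 and KSR2. Another was a run of 10 at chr10:29666351-29806650 near SVIL, with medians of 34.3 and 28.6. The last was a run of 13 on chromosome 16 within 1 gene, with medians of 46.3 and 50.5. The run with the most gene starts per Mb, 90.6, held 10 peaks at chr17:7227451-7459150 and 21 protein-coding genes between NEURL4 and TNFSF13, with medians of 28.2 and 18.3. A run of 16 peaks at chr1:153505551-153959550 reached from S100A6 to RAB13, and 9 of its peaks were within 1 kb of a protein-coding start. Its strongest member, nearest to S100A1, had 73.7 in control and 27.0 in treated cells. These runs were chosen after their values were seen.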
